A study of Mus musculus with 2 samples.

Results

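Ion channels and neurotransmitter receptors were examined in mouse liver RNA as 149 probe sets that each name 1 gene and cover 116 genes, out of 12488 probe sets on the array and 8251 named genes. They were chosen by gene symbol alone, as all probe sets whose symbol begins with the family stems of potassium (Kcn), sodium (Scn) and calcium (Cacn) channels, ClC chloride channels (Clcn), GABA-A receptors (Gabr), glutamate receptors (Gria, Grik, Grin, Grm), nicotinic acetylcholine receptors (Chrn), TRP channels, P2X receptors or aquaporins (Aqp). No probe set that names several genes carried such a symbol. The rule used no measured value, but it was set with earlier results of these data known. Both samples, replicates 1 and 2, were titled liver and described as total RNA of the same purchased catalogue item, while the source field named spleen. Strain, age, treatment and the number of pooled animals were not given in the labels, and the 2 arrays form 1 group with no control, so the results are a description with no test between groups. Nothing in the labels says that the arrays came from separate animals, and their spread may be purely technical.

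Ion channels are membrane proteins that let selected ions cross the membrane along their gradient. Voltage-gated channels of sodium, potassium and calcium shape the electrical signals of neurons and muscle, and ligand-gated receptors open when glutamate, GABA, acetylcholine or ATP binds. Hepatocytes are not electrically excitable, but they move water, glycerol, chloride and potassium across their plasma membrane and depend on chloride exchangers in lysosomes and endosomes. Aquaporins are not ion channels in the strict sense: they pass water, and the aquaglyceroporins among them also pass glycerol.

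The tissue label was checked first. All 5 hepatocyte markers (Alb, Apoa1, Tdo2, Cps1 and Ttr) gave at least 5099 on both arrays. None of 5 measured lymphocyte markers (Cd79a, Ms4a1, Cd3e, Cd79b and Cd2) was above background on both, although the B cell receptor chain Cd79a reached 450.3 and 333.4. None of 6 markers of neurons and glia was above background, but these belong to the non-liver genes that set the threshold. The arrays had median signals of 163.2 and 157.7 over all probe sets, and equal trimmed means of 500.5 once the outer 2% on either side were left out.

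Few of the channel and receptor genes were bright. A gene was read from its brightest probe set. It was called above background when its signal exceeded 510.7 on replicate 1 and 593.4 on replicate 2. These values are the 95th percentile of 98 genes of brain, retina, lens, testis and striated muscle. Of the 116 genes, 6 (5.17%) were above background on both arrays, against 25.8% of all 8251 named genes. Counted by probe set, 7 of 149 (4.70%) were above it, against 21.3% of all 10833 probe sets of 1 gene. Of the non-liver genes themselves, 4 of 98 (4.08%) exceeded the threshold on both arrays, a share limited in advance because these genes set the threshold. The 6 genes were Grina, Aqp9, Trpc4ap, Clcn7, Aqp8 and Aqp1. Brightness also depends on probe sequence, so signals place a gene within the array and do not rank transcript abundance between genes. In RNA of whole tissue, few cells with a transcript and little transcript in each cell cannot be told apart.

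Most of the other 110 genes lay in the dim part of the array, and the highest of the 110, P2rx7, was at percentile 72.2. The 110 genes had a median of 65.8 on replicate 1 and of 50.5 on replicate 2. Of all 116 genes, 67 (57.8%) stayed under a signal of 100 on both arrays, against 27.0% of all named genes. The median percentile of the 116 genes among all named genes was 23.8. Below the 50th percentile lay 96 of the 116, below the 25th 61, and above the 75th 5. A dim gene is described as not above background, and not as absent.

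**Figure D1:**
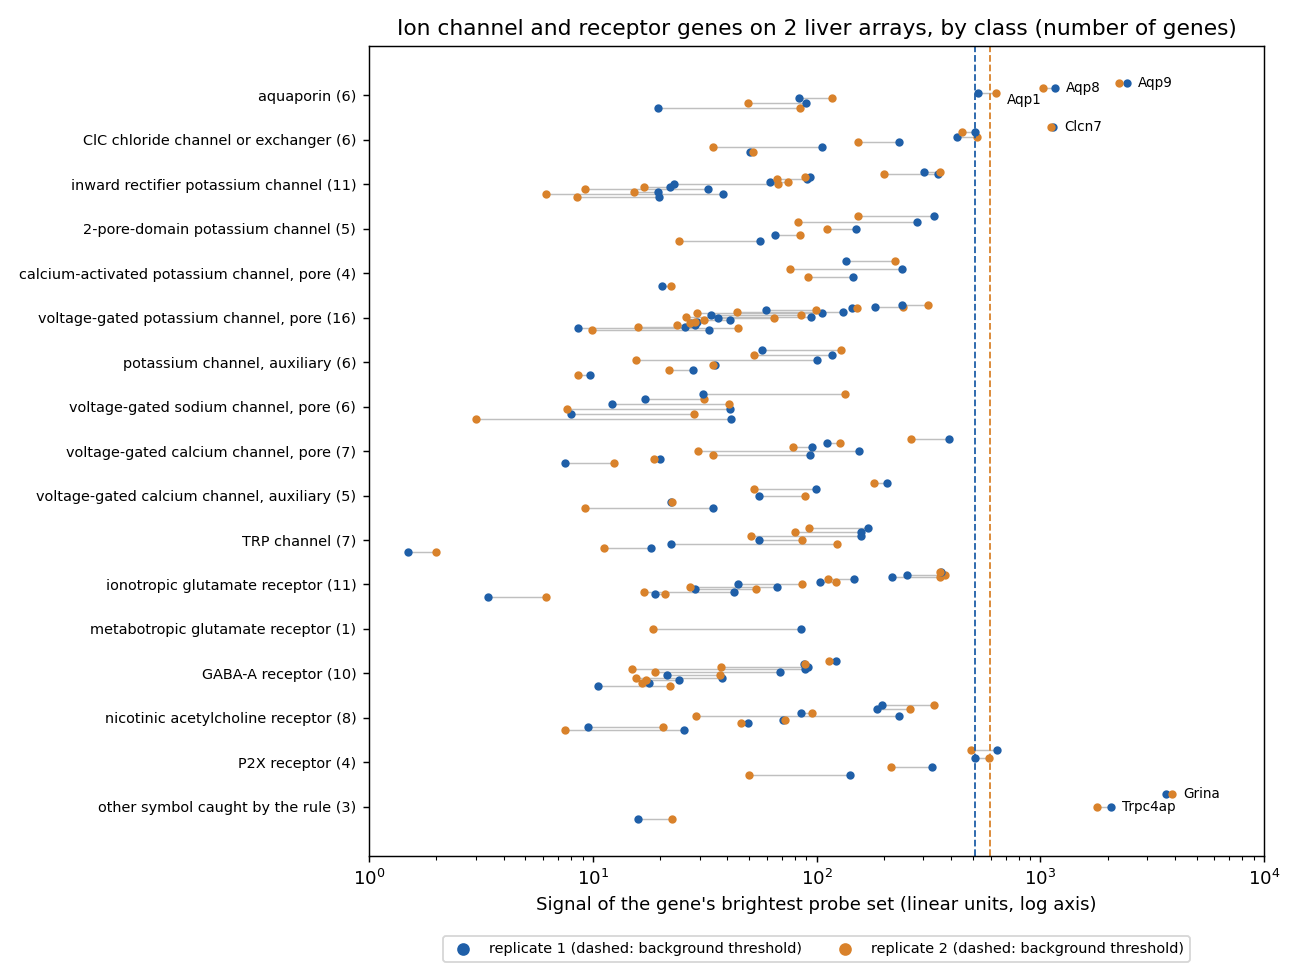
Signal of each of the 116 genes on replicate 1 (blue) and replicate 2 (orange), by class, on a log axis, with the background threshold of each array as a dashed line in its colour. Each of the 6 named genes lies to the right of each array's own line, Aqp1 by the smallest margin, and every class of potassium, sodium, calcium and TRP channel and of glutamate, GABA and acetylcholine receptor lies wholly to the left of both lines.

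**Figure D2:**
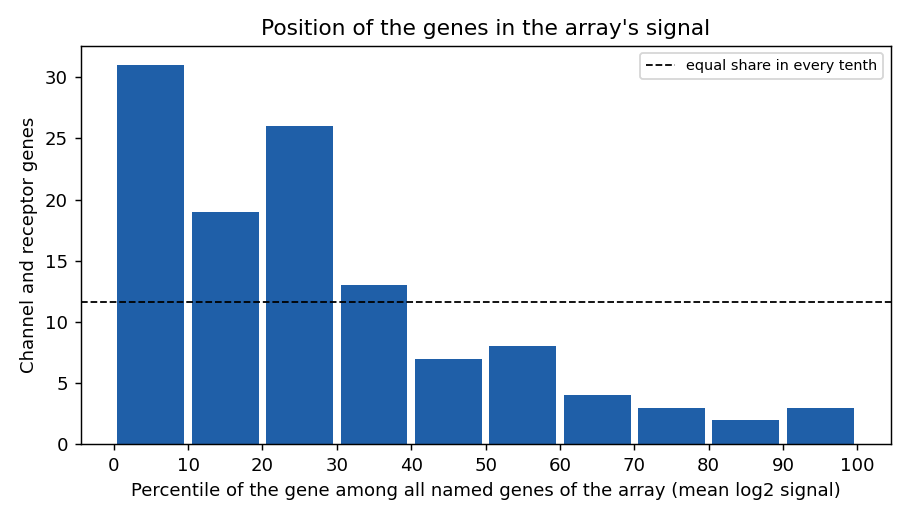
Number of the 116 genes (vertical axis) in each 10-percentile step of the array's named genes ordered by mean log2 signal (horizontal axis), with the 11.6 genes of an equal share as a dashed line. The lowest step holds 31 genes and the top step 3.

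Promoter sequence is a feature that the choice of genes did not use, and it is shown for the genes above background that the promoter table holds, to let their CG content and motifs be read in place. The sequences are the 250 bases before the annotated start, from the RefSeq promoter table of build GRCm38.p6, taken at the most upstream start where a gene has several, and which start is used in this RNA is not known. Aqp9 lies at chr9:71163290-71163539 on the minus strand, Aqp8 at chr7:123462044-123462293 on the plus strand, Aqp1 at chr6:55336049-55336298 on the plus strand, Clcn7 at chr17:25133141-25133390 on the plus strand and Trpc4ap at chr2:155692385-155692634 on the minus strand. Capitals mark every CG dinucleotide.
Aqp9: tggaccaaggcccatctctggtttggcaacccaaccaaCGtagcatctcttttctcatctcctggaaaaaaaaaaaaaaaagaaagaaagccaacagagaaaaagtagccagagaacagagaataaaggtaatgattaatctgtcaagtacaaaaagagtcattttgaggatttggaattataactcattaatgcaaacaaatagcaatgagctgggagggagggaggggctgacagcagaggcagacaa
Aqp8: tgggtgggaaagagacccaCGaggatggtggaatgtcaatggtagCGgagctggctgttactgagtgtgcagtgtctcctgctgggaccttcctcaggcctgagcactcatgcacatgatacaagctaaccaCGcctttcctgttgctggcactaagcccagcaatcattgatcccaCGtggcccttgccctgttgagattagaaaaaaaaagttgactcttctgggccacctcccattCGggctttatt
Aqp1: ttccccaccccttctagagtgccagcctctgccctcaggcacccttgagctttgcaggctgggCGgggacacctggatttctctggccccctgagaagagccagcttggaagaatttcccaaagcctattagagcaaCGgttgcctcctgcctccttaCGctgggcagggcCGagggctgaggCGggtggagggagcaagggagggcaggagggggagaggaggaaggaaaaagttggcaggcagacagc
Clcn7: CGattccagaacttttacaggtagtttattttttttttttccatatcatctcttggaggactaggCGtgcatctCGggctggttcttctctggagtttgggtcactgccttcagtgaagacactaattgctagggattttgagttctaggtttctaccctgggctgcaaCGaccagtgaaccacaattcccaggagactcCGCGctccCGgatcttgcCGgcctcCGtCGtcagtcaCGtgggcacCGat
Trpc4ap: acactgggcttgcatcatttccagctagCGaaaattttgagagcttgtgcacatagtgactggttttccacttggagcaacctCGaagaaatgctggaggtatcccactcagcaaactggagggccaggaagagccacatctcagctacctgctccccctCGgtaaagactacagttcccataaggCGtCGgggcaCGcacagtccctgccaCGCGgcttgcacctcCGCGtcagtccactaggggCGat

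The 250 bases of Aqp9 held 1 CG dinucleotide, those of Aqp8 and Aqp1 held 5 each, those of Clcn7 held 12 and those of Trpc4ap 11. A promoter was matched for 91 of the 116 genes, among them 5 of the 6 above background (all but Grina). The median CG count was 9 over the 91 genes and 14 over 6572 genes of the array with a promoter in the table. It was 6 over all 27018 promoters taken from the table, with the most upstream start used for each gene. The dim aquaporin genes Aqp7 and Aqp2 held 0 and 8. The 5 bright genes held between 1 and 12, with a median of 5, and the 86 matched genes that were not above background held between 0 and 36, with a median of 9. With 5 bright genes these ranges are a description, and the CG counts of the bright genes lie within those of the dim ones. The highest counts were those of the calcium channel subunit gene Cacna2d1, with 36, and the inward rectifier gene Kcnj4, with 35.

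Short motifs were searched on both strands of the same 250 bases. CACGTG, the core of the E-box bound by several helix-loop-helix factors, was found in the promoters of Aqp8 and Clcn7, beginning 75 and 15 bases before the start. It was found in 8 of the 91 matched genes (8.79%), against 8.40% of the array's genes and 6.04% of all 27018 promoters taken as above. TATAAA was found in 7 of the 91 (7.69%) and in none of the 5 bright genes, against 9.34% of the array's genes and 12.98% of all promoters. GGGCGG was found in 41 of the 91 (45.1%), of the bright genes in Aqp1, against 54.8% of the array's genes and 33.0% of all promoters. CCAAT was found in 19 (20.9%), against 36.0% of the array's genes and 34.5% of all promoters. ATTAAT was found in 5 (5.49%), Aqp9 among them, against 2.40% of the array's genes and 4.53% of all promoters. CACGTG and GGGCGG each contain a CG and so overlap the CG count. A match is a description of these letters and not evidence of binding.

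**Figure D3:**
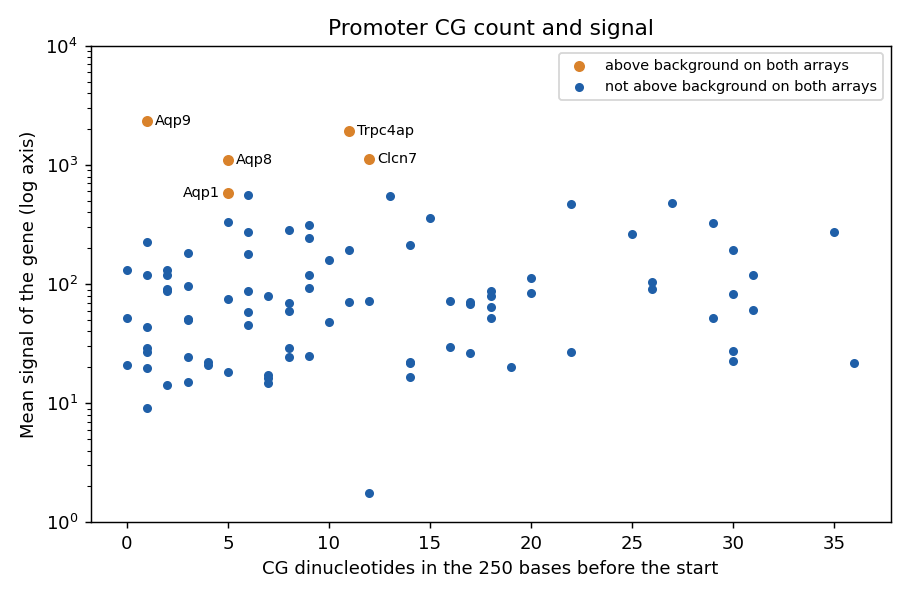
Mean signal of each of the 91 genes with a promoter in the table (vertical log axis) against the number of CG dinucleotides in the 250 bases before its start (horizontal axis), with genes above background on both arrays in orange. The 5 bright genes lie between 1 and 12 CG dinucleotides, within the range of 0 to 36 of the 86 dim genes.

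Aquaporins were the class with most genes above background, 3 of 6. Aqp9, the aquaglyceroporin through which hepatocytes take up glycerol, gave 2429.9 on replicate 1 and 2241.6 on replicate 2 (mean 2336 ± 133.1, SD, n = 2 arrays), at percentile 92.7. Aqp8, a water channel of hepatocytes that is also found in intracellular membranes, gave 1159 and 1025 (1092 ± 94.8, n = 2). Both were above the threshold by at least 1.73-fold on each array, and the arrays differed by 1.08-fold for Aqp9 and 1.13-fold for Aqp8. Aqp1, the water channel of red cells, endothelium and bile duct epithelium, gave 529.1 and 634.3 (581.7 ± 74.4, n = 2), which is 1.04 times the threshold on replicate 1. Its call rests on that margin, and its second probe set gave 58.9 and 132.8.

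The other 3 aquaporins were dim on both arrays. Aqp4, the water channel of astrocytes, gave 83.2 and 116.9 in 1 probe set and 84.2 and 97.9 in the other. Aqp2, the vasopressin-controlled channel of the kidney collecting duct, gave 89.9 and 49.4. Aqp7, the glycerol channel of fat cells, gave 19.6 and 84.3, a 4.30-fold difference between the arrays at low signal. Read from brightest sets, each of the 3 lay below each of the 3 bright aquaporins on both arrays, which follows from the calls. The second set of Aqp1 (58.9 and 132.8) was below Aqp2 and both sets of Aqp4 on replicate 1.

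Markers of the other cell types known to carry Aqp1 were measured alongside. Above background on both arrays were 1 of 5 endothelial markers (Eng, with 3677 and 4026), 1 of 4 bile duct markers (Anxa4) and 2 of 4 red cell markers (Hba-a1 and Alas2). The summed signal was 4551 and 4783 for the endothelial list, 1203 and 1036 for bile duct and 26374 and 27007 for red cells. Eng, Anxa4 (1051 and 940) and Hba-a1 (24075 and 24908) each made up most of the sum of their list. No listed marker was at 0. Krt19, Krt7 and Epcam, which define bile duct cells, gave at most 87.0. The part of these cells in the Aqp1 signal was not tested.

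The ClC family holds chloride channels of the plasma membrane (Clcn1, Clcn2) and chloride-proton exchangers of endosomes and lysosomes (Clcn3, Clcn4, Clcn5, Clcn7). Of its 6 genes, Clcn7 alone was above background on both arrays. Clcn7, the lysosomal exchanger, gave 1144 and 1112 (1128 ± 23.2, n = 2), and the arrays differed by 1.03-fold. This came from a probe set of suffix s, which marks probes shared by several transcripts, and its plain probe set gave 201.6 and 134.4. The 2 sets differ by 6.85-fold in geometric mean, so the call of Clcn7 depends on which set is read.

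Clcn3 and Clcn4, both endosomal, lay close to the threshold. Clcn3 gave 512.8 and 445.9 in its brightest set, above the threshold on replicate 1 only, and between 178.4 and 284.5 in its other 3 sets. Clcn4 gave 424.2 and 523.6 in its brighter set and 205.2 and 185.2 in the other. Clcn2, a widely expressed plasma membrane channel, gave 233.6 and 153.5. Clcn5, the endosomal exchanger of kidney tubules, gave 106.3 and 34.5 in its plain set and 46.4 and 79.0 in a set of suffix r. Clcn1, the skeletal muscle channel, gave 50.6 and 51.8 in its plain set and 4.7 and 50.1 in a set of suffix r. These 5 genes were below the suffixed set of Clcn7 on both arrays, while Clcn2, Clcn3 and Clcn4 were above its plain set on both.

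P2X receptors are cation channels opened by extracellular ATP, and their 4 genes had a median percentile of 63.1, with none above background on both arrays. P2rx7, which macrophages carry and which is linked to the release of interleukin-1, gave 637.5 and 490.8, above the threshold on replicate 1 only. P2rx4, also prominent in macrophages, gave 509.2 and 589.4, which is 0.993 times the threshold on replicate 2. P2rx1, a receptor of platelets and smooth muscle, gave 329.3 and 215.8, and P2rx6 gave 141.8 and 50.1. With a threshold at the 90th percentile of the non-liver genes (380.2 and 362.6), P2rx7, P2rx4, Clcn3 and Clcn4 joined the others, and 10 of 116 genes (8.62%) were above it against 34.9% of all named genes. The 5 Kupffer cell markers Clec4f, C1qa, C1qc, Csf1r and Cd5l were all above background, with summed signals of 9807 and 9729 and none at 0. Their part in the P2rx4 and P2rx7 signals was not tested.

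Potassium channels set the resting potential of most cells and formed the largest group, with 36 pore genes, and none of the 36 was above background on either array. They had a median of 60.6 on replicate 1 and of 65.7 on replicate 2. Among 11 inward rectifiers, Kcnj9, a subunit of the G protein-gated channels, gave the highest mean log2 signal (302.4 and 356.8, in a set of suffix r) and Kcnj1, the kidney channel ROMK, the lowest (19.7 and 8.5). Kcnj4 gave 349.4 and 200. The pores of the ATP-sensitive channels were dim, with Kcnj8 at 23.0 and 67.2 and Kcnj11 at 61.9 and 74.6.

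Of the 5 genes of the 2-pore-domain family, which carries background potassium current, Kcnk7 gave the highest mean log2 signal (334.1 and 152.5) and Kcnk3, the acid-sensitive TASK channel, the lowest (55.9 and 24.3). Of the 4 calcium-activated pores, Kcnn4, the channel of red cells and lymphocytes, gave 136.1 and 223.3, Kcnn1 gave 240.8 and 76.1, Kcnma1, the large-conductance channel, gave 145.4 and 91.4, and Kcnu1, a sperm channel, gave 20.3 and 22.3. Signals of Kcnn1 differed 3.16-fold between the arrays, so its place among the 4 is not fixed by these data.

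The 16 voltage-gated potassium pores had a median signal of 38.7 and 37.8, and 15 of them lay below the 50th percentile. Kcnq1, the pore of the slow delayed rectifier of heart and epithelia, was the exception in 1 of its 2 sets: its set of suffix r gave 242.0 and 314.1 and its plain set gave 86.0 and 12.1. Kcnh2, the cardiac channel known as hERG, gave 182.0 and 243.1. Kcna4, a neuronal and cardiac channel, gave 33.2 and 9.9, the lowest mean log2 signal of the class. The 6 auxiliary potassium channel subunits had a median percentile of 15, against 19.3 for the voltage-gated pores. Their median signal was 46 on replicate 1, above that of the pores, and 28.15 on replicate 2, below it. The subunits ran from Kcne1, the partner of Kcnq1 (56.8 and 128.5), to Kcnmb1, the smooth muscle partner of Kcnma1 (9.7 and 8.6).

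Genes of the voltage-gated sodium channel family, most but not all of whose channels serve the action potential, lay near the bottom of the array. All 6 genes of this family were below the 25th percentile, with a median percentile of 6.92. Scn8a gave 31.0 and 134.7 in 1 set and 5.3 and 3.8 in the other, and Scn1a gave 41.6 and 3.0 in its brighter set. These signals differed between the arrays by 4.35-fold for Scn8a and 13.9-fold for Scn1a, in opposite directions. Scnm1, which the rule also caught and which encodes a splicing-related protein and not a channel, gave 15.9 and 22.5.

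Voltage-gated calcium channels, which couple depolarisation to secretion and contraction, had 7 pore and 5 auxiliary genes, none above background on either array. Cacna1b, the N-type channel of nerve terminals, gave the highest signal of the pores (390.6 and 264.9), and Cacna1g, a T-type channel, the lowest (7.5 and 12.5). Cacna1c, the L-type channel of heart and smooth muscle, gave 111.7 and 127.8, and Cacna1s, that of skeletal muscle, gave 155.4 and 29.5. Among the auxiliary genes Cacnb2 gave 206.4 and 181.4 and Cacna2d1 gave 34.5 and 9.2.

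TRP channels are cation channels with many roles in sensation and in calcium and magnesium entry. All 7 of their genes lay below the 50th percentile. Trpv2 gave the highest mean log2 signal, 169.9 and 92.2. Trpm7, a magnesium-permeable channel fused to a kinase and expressed widely, gave 157.5 and 50.9. Trpc6, a receptor-operated calcium entry channel, gave 1.5 and 2.0, at percentile 0.0182 and the lowest of the 116 genes on both arrays.

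Trpc4ap and Grina carry channel symbols but are not themselves pores, and they were 2 of the 3 genes of this collection above the 90th percentile. Trpc4ap, a partner of the channel Trpc4 and a substrate adaptor of a ubiquitin ligase, gave 2064 and 1790 (percentile 91.1), while Trpc4 itself gave 22.3 and 123.3. Grina, a membrane protein of the TMBIM family named after the NMDA receptor, gave 3629.7 and 3870.1 in 1 probe set and 2757 and 3074 in the other. Grina was the gene with the highest signal of the 116 on both arrays, at percentile 95.1, and of the 28 genes with several probe sets it was the 1 gene with every set above background. Without these genes and Scnm1, 4 of 113 genes (3.54%) were above background on both arrays, namely 3 aquaporins and Clcn7.

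None of the 34 genes of neurotransmitter receptors, the P2X receptors included, was above background on both arrays, and apart from P2rx7 none was above it on either. Ionotropic glutamate receptors, the main excitatory receptors of the brain, had 11 genes with a median signal of 66.4 and 86.4. The NMDA receptor subunits Grin2c (358.6 and 356.4) and Grin2d (253.8 and 375.6) and the kainate receptor subunit Grik5 (218.2 and 354.6, in a set of suffix r) lay highest. The AMPA receptor subunit Gria3 gave 3.4 and 6.2. All 4 probe sets of Gria2, the subunit that limits calcium flow through AMPA receptors, stayed at or below 29.4 on both arrays. The metabotropic receptor Grm8, the single member of its class on the array under this rule, gave 85.6 and 18.6.

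GABA-A receptors are the chloride channels of fast inhibition in the brain. All 10 of their genes lay below the 50th percentile and 8 below the 25th, from Gabrg3 (122.4 and 114.0) down to Gabrr1 (10.6 and 22.2). Nicotinic acetylcholine receptors had 8 genes, led by Chrna7, a subunit of neurons and macrophages (196.5 and 334.0). Chrne, a subunit of the adult neuromuscular junction, gave 186.3 and 261.1 in its brightest set, of suffix r, and 28.1 and 18.1 in its dimmest. Chrna6, of dopamine neurons, gave 234.5 and 29.0, an 8.09-fold difference between the arrays. Chrnb1, of muscle, gave 25.6 and 7.5, the lowest mean log2 signal of the class.

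Where a gene had several probe sets, they often gave different signals. For the 28 such genes the brightest set exceeded the dimmest by a median of 3.34-fold in geometric mean, from 1.00-fold for Clcn5 to 14.4-fold for Scn8a, and by over 2-fold in 22. The sets of Clcn5 matched in geometric mean only: they gave 106.3 and 46.4 on replicate 1, and 34.5 and 79.0 on replicate 2. Both sets of Grina differed by 1.29-fold. Aqp1 and Clcn7 each had 1 set above background and 1 below, with differences of 6.55-fold and 6.85-fold. For the remaining 25 genes no set was above background on both arrays.

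**Figure D4:**
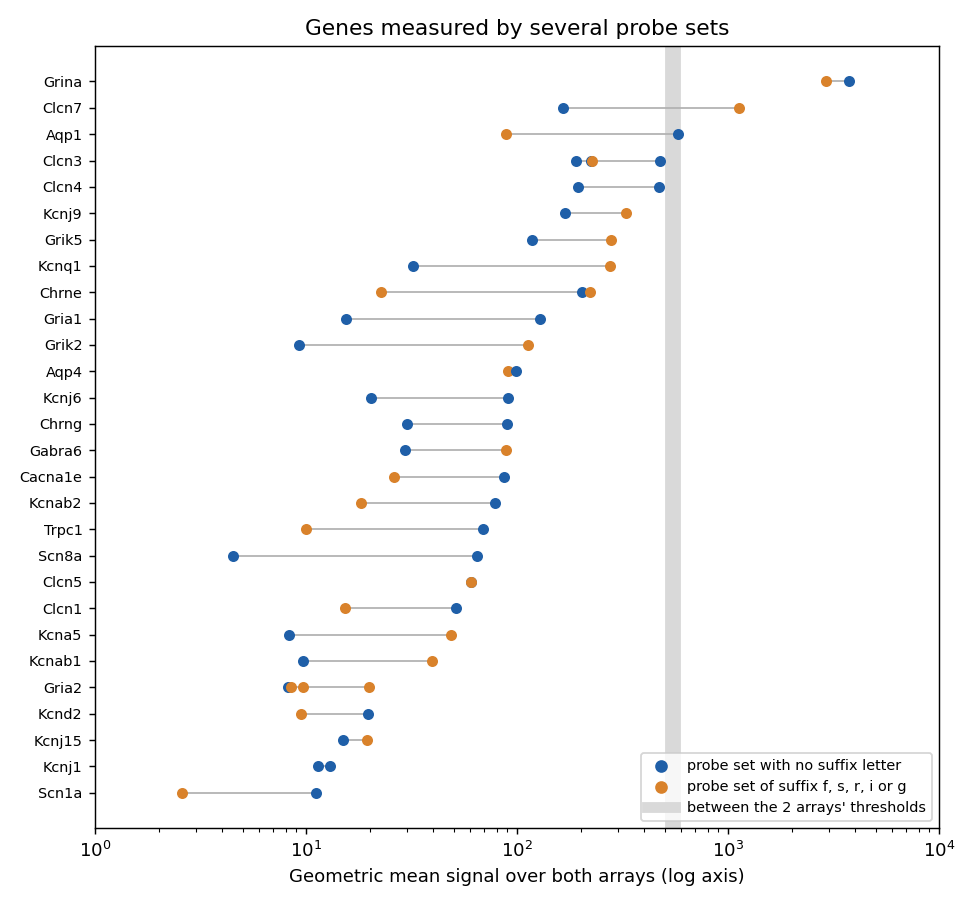
Geometric mean signal over both arrays of every probe set of the 28 genes with several sets (horizontal log axis), with suffixed sets in orange and the range between the 2 arrays' thresholds shaded. Both sets of Grina lie right of the shaded range, Clcn7 has a set on each side of it, and the brighter set of Aqp1 lies within it.

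Agreement between the arrays was closest at high signal. It did not follow signal throughout, as the channel and receptor sets agreed less between a mean log2 signal of 5 and 6.5 than under 5. Of the 149 probe sets, 52 (34.9%) differed over 2-fold between the arrays after the median difference of all probe sets was subtracted, against 17.4% of all probe sets of 1 gene. Among sets with a mean log2 signal over 8, 0 of 20 differed that much, against 0.996% of all sets in that band. Between 6.5 and 8 it was 3 of 28 (10.7%) against 10%, between 5 and 6.5 it was 25 of 45 (55.6%) against 36.2%, and under 5 it was 24 of 56 (42.9%) against 43.6%. Of the channel and receptor sets 37.6% lay under 5 and 30.2% between 5 and 6.5, against 17.6% and 19.3% of all sets. On log2(value + 32), which damps differences at low signal, 20 of the 149 differed over 2-fold, against 6.37% of all sets.

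More of the large differences were lower than higher on replicate 2. Lower were 36 sets (24.2%, against 9.66% of all sets) and higher were 16 (10.7%, against 7.74%). The median log2 difference, replicate 2 minus replicate 1, was -0.09 over the 149 sets and 0.00 over all sets of 1 gene. With 1 array on each side these differences have no replicate check. Among the 33 sets whose mean log2 signal exceeded the median of all probe sets, Kcnk7 was the single set over 2-fold (2.19-fold lower on replicate 2), which is 3.03% of them against 2.10% of all sets of 1 gene above that median. The next in that direction were Chrne (271.1 on replicate 1 and 152.4 on replicate 2, in its plain set), Kcnj4, P2rx1 and Clcn2. In the other direction were Chrna7, Kcnn4, Grik5, a Clcn3 set of suffix g (178.4 on replicate 1 and 284.5 on replicate 2) and Grin2d, by 1.48-fold to 1.70-fold. The 7 probe sets above background differed by at most 1.20-fold.

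**Figure D5:**
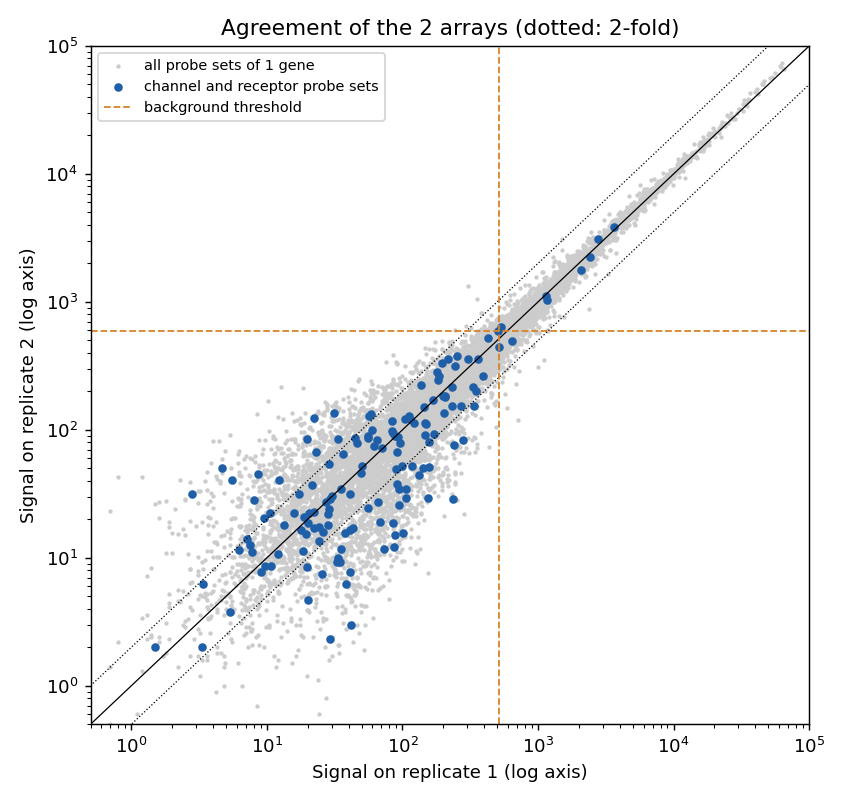
Signal on replicate 2 (vertical) against replicate 1 (horizontal), both on log axes, for the 149 channel and receptor probe sets (blue) and all 10833 probe sets of 1 gene (grey), with 2-fold limits dotted and thresholds dashed. The 7 sets beyond both thresholds lie close to the diagonal, and the blue points spread widely at low signal.

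Genes of related function outside the symbol rule, listed with earlier results of these data known, were counted in the same way. Of 25 measured genes of other channels and associated proteins, 7 (28%) were above background on both arrays, against 25.8% of all named genes. The highest were Clic4, a chloride intracellular channel protein (2842 and 2872), Tmem38b, a cation channel of the endoplasmic reticulum (1979.5 and 2339), Stim1, the calcium sensor of the endoplasmic reticulum (1473 and 1423), and the pacemaker channel Hcn2, read from a set of suffix r (1309 and 1482). Itpr2, an inositol trisphosphate receptor and the main calcium release channel of hepatocytes, gave 999 and 1055 in a set of suffix i. Lrrc8a, of the volume-regulated anion channel, and Vdac3, a pore of the outer mitochondrial membrane, were the others.

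Of 38 other receptors for transmitters and nucleotides 1 (2.63%) was above background, the somatostatin receptor Sstr4 (707.4 and 913.4). Of 25 genes of ion pumps, cotransporters and associated proteins 6 (24.0%) were above background. Highest were the pump regulator Fxyd1 (6067 and 5919), the scaffold Slc9a3r1 (2376 and 2894), the sodium pump subunit Atp1b3 (1561 and 1799.7) and the zinc transporter Slc39a1 (932.4 and 1063). Of 20 genes of receptor scaffolds and traffic 4 (20.0%) were above background. Of these, Gabarap (6320.3 and 6564.6), Gabarapl1 (5514 and 5223) and Gabarapl2 (2204 and 2129) are named after the GABA-A receptor but belong to the ubiquitin-like proteins of autophagy, and the fourth was Lin7c (536.7 and 624.1).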

How the data were processed

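Total liver RNA was measured on 2 single-colour Affymetrix arrays. The deposited values are signal intensity on a linear scale, 1 per probe set and array; no source used here states the summary method, scaling or detection calls, and no scanner file was used. They were analysed as deposited, with no further normalization. Of 12488 probe sets, 66 were controls and stayed out. The platform annotation named 1 gene for 10855 probe sets, several for 396 and none for 1237. All 116 member genes matched the RefSeq table of GRCm38.p6 by gene ID, and 0 symbols changed; promoter sequences come from RefSeq as well. The array annotation names no genome build.

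Each gene was read from the set that was brightest in mean log2 signal over both arrays. The threshold was the 95th percentile, per array, of 98 measured of 107 listed non-liver genes, none a member. With 1 group there was no test and no p-value; arrays limit precision by their number. Named genes are the members above the threshold on 1 or both arrays, those just under it, the highest and lowest of each class, the most different sets and 18 fixed genes, not all of which were analysed here. Beyond that rule, further class members were named after their values were seen. Members, lists and motifs were chosen with earlier results of these data known. A longer motif of the HNF1 type was also searched and is not reported here. The steps were tested on simulated data. Python 3.11.15, numpy 2.4.6, pandas 2.3.3 and matplotlib 3.10.9 were used.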

Additional observations from a re-analysis of the deposited data

How the results depend on the processing

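The count of 6 genes above background depended on the threshold, as did the share of all named genes, 25.8%. It was 10 with the 90th percentile (all genes 34.9%), 10 with a threshold from brain genes only (32.1%) and 10 without suffixed probe sets (f, s, r, i, g; 35.8%), and the probe set count of 7 became 11 under each of the first 2 (all sets 29.3% and 26.8%). Leaving out suffixed sets lowered the threshold to 305.9 and 338.9. Of the 4 non-liver genes above the main threshold, 3 (Pvalb, Tnp1 and Clgn) were read from suffixed sets. So were others above it on 1 array only, such as Pcp2 (951 and 588.5) and Crybb2 (480.3 and 621.6). The part of each gene in the lower threshold was not tested. Single arrays gave 6 to 8 genes (all genes 26.3% and 30.2%) and 7 to 9 probe sets, and a median percentile of 20.7 to 25.7. The 99th percentile gave 5 genes (all genes 16.1%) and averaging the sets of a gene gave 8 (32.4%). Grina, Trpc4ap, Aqp9 and Aqp8 were above background under every alternative run that included them. Clcn7 fell to 0.397 times the threshold without suffixed sets, and Aqp1 to 0.534 times with the 99th percentile and 0.601 times with the mean of its sets. Grin2c joined the genes above background without suffixed sets and with the mean of sets. Sets over 2-fold different between the arrays numbered 52, with 20 on log2(value + 32) and 0 among the 7 sets above background. The median log2 difference of -0.09 was -0.0138 after quantile normalization, -0.0354 on log2(value + 32), -0.12 with no shift and -0.0141 for sets above background. Of the sets over 2-fold, 36 were lower and 16 higher on replicate 2, against 36 and 21 after quantile normalization and 16 and 4 on log2(value + 32). Leaving out Grina, Trpc4ap and Scnm1 was chosen after seeing the data. The threshold from an earlier non-liver list was not run. No paired analysis was possible because both arrays belong to 1 group. The lack of detection calls limits what can be said of the dim genes.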
